A study of Piaractus mesopotamicus with 9 samples.

Results

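The miR-130, miR-301 and miR-454 family was followed in cultured muscle cells of pacu (Piaractus mesopotamicus), a South American freshwater fish. Its members were the entries of the deposited normalised table whose name, without the species prefix, begins with miR-130, miR-301 or miR-454. This gave 49 of the 1769 entries of that table. Entries with the same values in every library were counted once as 1 count profile, which left 29 of 953 profiles. miR-130 had 9 profiles from 24 entries, miR-301 had 15 profiles from 17 entries and miR-454 had 5 profiles from 8 entries. The raw table held 82 family entries in all, and the other 33 had a mean under 10 counts.

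The cells were myoblasts from fast-twitch muscle that had formed myotubes over 8 days of culture, and all of them were then deprived of amino acids. The AA group received medium with amino acids (DMEM, whose base also differs from that of the deprivation medium) after 12 h of deprivation. The IGF1 group received recombinant insulin-like growth factor 1 of gilthead sea bream in the amino acid-free medium after 12 h. The CTR group was the control and remained without amino acids throughout, for 36 h. The treatment protocol gives 24 h of supplementation, while the sample characteristics give 12 h. Each group had 3 small RNA libraries. The study describes independent cultures without linking a culture to a library, so p-values measure the spread between these libraries. The cultures were primary, so cells of other types may have been present.

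A mature miRNA guides the silencing complex to messenger RNAs that pair with its seed, a short stretch near its 5′ end. miR-130, miR-301 and miR-454 carry the same seed on their 3p arms, so they are predicted to recognise overlapping sets of messenger RNAs, while the 5p arm, the other strand of the same hairpin, carries a different seed. In mammals, miR-130 is known to repress Pparg, a regulator of fat cell formation, and miR-301a and miR-454 are encoded close together in a host gene intron. The letter after the number marks a related gene copy, and the suffix 3p or 5p marks the arm. Many older entries have no arm in their name. No sequences were used here, so members are described by name and count alone.

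Reads were counted against reference miRNAs of 13 teleost species, none of them pacu. The zebrafish entries, which have the prefix dre-, summed to totals that ran from 7627252 to 12908097 per library. Muscle miRNAs (miR-206, miR-133, miR-1 and miR-499) were present in every library and took 0.194 to 0.276% of the zebrafish counts in AA, 0.0757 to 0.0851% in IGF1 and 0.0439 to 0.0683% in CTR. Of other cell types, the endothelial marker miR-126 took 0.0136 to 0.0242% in AA, 0.0130 to 0.0202% in IGF1 and 0.0132 to 0.0162% in CTR. Of the red blood cell markers (miR-451, miR-144) 1 of 3 entries had a mean of 10 or more counts, of the epithelial markers 1 of 16 and of the neural markers 3 of 12, with 1, 4 and 3 entries at 0 in every library. Red blood cell markers took 0.000451 to 0.00137% in AA, 0.000396 to 0.00132% in IGF1 and 0.000398 to 0.000852% in CTR, and epithelial markers 0.000685 to 0.000820%, 0.000574 to 0.000782% and 0.000596 to 0.000734% in the same order. Neural markers took 0.00183 to 0.00218% in AA, 0.00109 to 0.00215% in IGF1 and 0.00149 to 0.00158% in CTR, so that list, like the muscle list, lay wholly higher in AA than in CTR. Their part in the results below was not tested. In bulk libraries, fewer cells of a type and less RNA per cell cannot be told apart.

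Letters were not a reliable guide to the counts. A total of 7 profiles held entries with more than 1 letter name: the 6 entries of the abu-miR-130 profile are named miR-130 in 3 species, miR-130a in oni and pny, and miR-130d-3p in ssa. Conversely, 1 name covered different counts. Profiles named miR-454b averaged 4965 normalised counts for the oni entry, 3151 for ipu (the profile gmo-miR-454-3p), 483 for dre and 39.9 for ccr, while dre-miR-454a had at most 1 count in any library. Some profiles also differed by only a few counts. Joining those within 2% or 2 counts of each other in each library left 21 groups of near-identical profiles, 9 for miR-130, 7 for miR-301 and 5 for miR-454. The largest group, led by abu-miR-301b, joined 6 profiles from 8 entries named miR-301a-3p, miR-301b, miR-301b-1 or miR-301c. Profiles of 1 such group are not separate observations, and the counts do not show which gene copy of pacu they came from.

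Levels spread over a range from about 7 to 10435 normalised counts, a unit in which the authors divided each library's counts by 1 size factor. oni-miR-130b-5p had the highest mean, 8483, and ranked 278 among the 953 profiles. It was followed by the miR-454 profiles oni-miR-454b (4965) and gmo-miR-454-3p (3151), then by dre-miR-130a (2880) and ssa-miR-130b-3p (1672). No miR-301 profile averaged more than 399, the level of ccr-miR-301a. The steadiest members were dre-miR-130a and ssa-miR-130b-3p, whose SD over all 9 libraries was 4.89% and 5.18% of the mean. The rarest, ola-miR-130c, averaged 12.5 with an SD of 43.4% of the mean, at a mean of 12.7 raw counts.

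**Figure D1:**
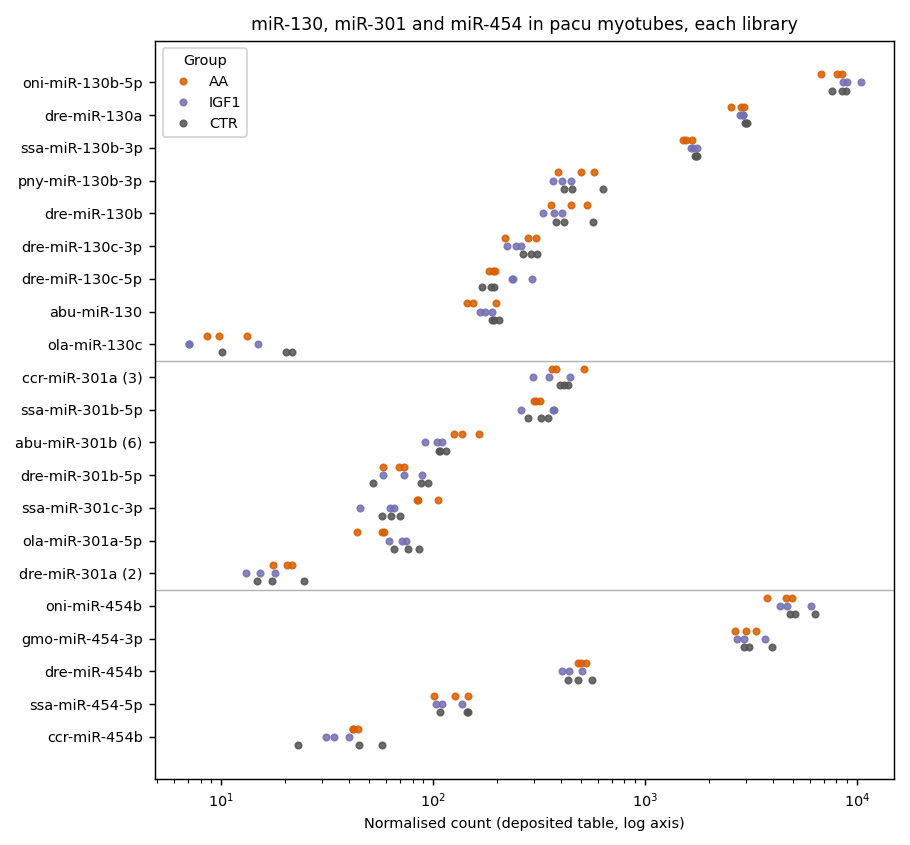
Normalised counts (horizontal log axis) of the 21 groups of near-identical profiles in each AA, IGF1 and CTR library, with 1 point per library and the number of joined profiles in parentheses. Levels run from oni-miR-130b-5p, with 6792 to 10435 normalised counts, to ola-miR-130c, with 7.04 to 21.6, and the 3 groups lie close together in nearly every row.

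As a share of all zebrafish counts, the 7 zebrafish profiles of the family took 0.0504, 0.0409 and 0.0420% in the AA libraries, 0.0434, 0.0361 and 0.0347% in the IGF1 libraries and 0.0432, 0.0390 and 0.0413% in the CTR libraries. The means were 0.0444% ± 0.00522 in AA, 0.0380% ± 0.00472 in IGF1 and 0.0412% ± 0.00209 in CTR (SD, n = 3 each), and the ranges of the groups overlapped. These are shares of raw counts without the size factors, so their order need not be that of the normalised counts. dre-miR-130a, the most abundant of the 7, averaged 2774 normalised counts in AA, 2874 in IGF1 and 2994 in CTR. dre-miR-130c-5p, dre-miR-301a and dre-miR-454b averaged higher in AA than in CTR, and the others lower. Within that share, miR-130 held 86.2% ± 0.346 in AA, 87.4% ± 0.607 in IGF1 and 86.9% ± 0.656 in CTR. miR-454 held 11.8% ± 0.219, 10.5% ± 0.933 and 10.9% ± 1.08 in the same order, and miR-301 held 2.02% ± 0.170, 2.07% ± 0.391 and 2.16% ± 0.600. The zebrafish entries leave out the abundant oni-miR-130b-5p, oni-miR-454b and gmo-miR-454-3p, so these shares describe the zebrafish names and not the whole family.

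With the group alone in the model, no profile of the family passed the test in any of the 3 comparisons. A profile was called at an adjusted p of at most 0.05 (edgeR's quasi-likelihood test with Benjamini-Hochberg adjustment over all tested entries) and a log2 fold change of 0.55 or more in either direction, equal to 1.46-fold. For AA and CTR, 0 of 29 family profiles were called, where 2.31% of all profiles were. For IGF1 and CTR, 0 of 29 were called against 0.210% of all profiles, and for AA and IGF1, 0 of 29 against 2.10%. DESeq2 also called 0 of 29 in each comparison, where it called 2.83%, 1.15% and 2.94% of all profiles. At an unadjusted p of at most 0.05 in edgeR, 2 family profiles passed for AA and CTR (6.30% of all profiles did), 1 for IGF1 and CTR (7.66%) and 8 for AA and IGF1 (9.55%). The 8 came from 3 of the 21 groups of near-identical profiles.

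For most members these libraries left room for a change of less than 2-fold. That limit is wider than the minimum log2 fold change of 0.55 for a call. A change of that minimum size was not excluded for many members. The 95% interval for abu-miR-301b reached 0.76 in AA and CTR, and that for dre-miR-130b reached -0.76 in IGF1 and CTR. For others it was excluded, as for dre-miR-130a, at -0.33 to 0.10 and -0.28 to 0.15 in the same comparisons. The 95% interval of the log2 fold change lay within a 2-fold change either way for 20 of the 21 groups of near-identical profiles in AA and CTR, for 20 in IGF1 and CTR, and for 19 in AA and IGF1. ola-miR-130c was outside that limit in all 3 comparisons. Its normalised counts were 13.2, 8.57 and 9.75 in AA, 14.8, 7.04 and 7.07 in IGF1, and 20.2, 10.1 and 21.6 in CTR. The groups overlapped, and the log2 fold changes of -0.65 for AA (95% interval -1.57 to 0.27) and -0.76 for IGF1 (-1.69 to 0.17) against CTR rested on few counts.

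**Figure D2:**
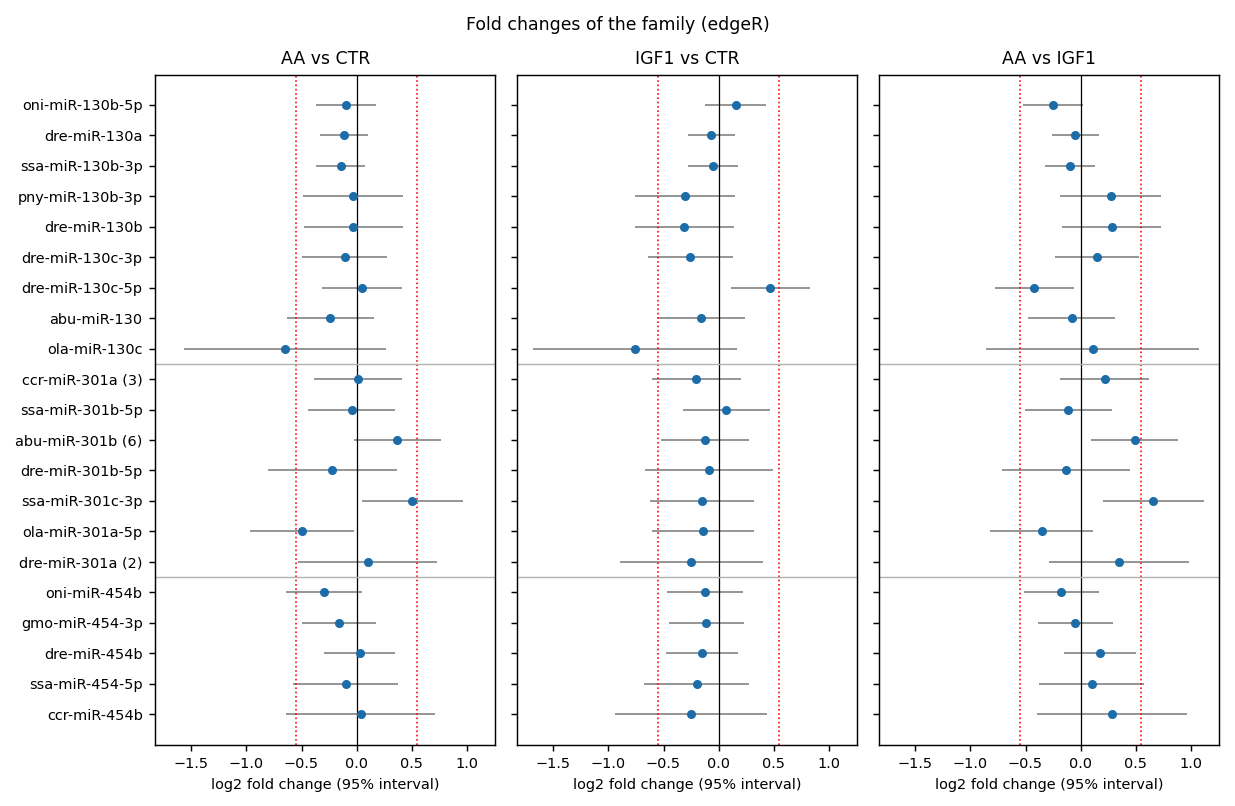
Log2 fold changes (horizontal axis) of the 21 groups of near-identical profiles with their 95% intervals from edgeR for AA vs CTR, IGF1 vs CTR and AA vs IGF1, where dotted lines mark the minimum of 0.55 on either side of 0. The points run from -0.65 to 0.51 in the left panel, from -0.76 to 0.47 in the middle and from -0.42 to 0.66 on the right, and most intervals cross 0.

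In AA and CTR, 7 of the 21 groups of near-identical profiles had a log2 fold change above 0, and the median over these groups was -0.10. Over the 29 profiles, which count near-identical ones repeatedly, the median was 0.01, against -0.04 over all 953 profiles. With near-identical entries of the whole table collapsed and the model refitted, it was -0.11 for the family, against -0.01 for all. That family median left out the groups led by dre-miR-130a, dre-miR-130b, dre-miR-130c-3p and dre-miR-454b, of which the refit kept other names. By number, the median over the 21 groups was -0.11 for miR-130 (1 of 9 above 0), 0.01 for miR-301 (4 of 7) and -0.10 for miR-454 (2 of 5). The AA and CTR libraries did not overlap for 10 of the 29 profiles, 7 higher and 3 lower in AA, where 11.9% of all profiles did not overlap. These 10 came from 5 groups of near-identical profiles: ssa-miR-301c-3p and the abu-miR-301b group above CTR, and dre-miR-130a, ssa-miR-130b-3p and ola-miR-301a-5p below it.

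Among members other than ola-miR-130c, the miR-301 names held both the highest and the lowest fold changes of AA against CTR. ssa-miR-301c-3p, a 3p arm by its name, had 83.8, 84.6 and 105 normalised counts in AA, 65.6, 45.3 and 62.5 in IGF1, and 63.4, 70.0 and 57.6 in CTR. Every AA library was above every IGF1 and CTR library, while IGF1 and CTR overlapped. The log2 fold change was 0.51 ± 0.21 (SE) for AA against CTR, with an edgeR adjusted p of 0.399, and -0.15 ± 0.21 for IGF1 against CTR, with an adjusted p of 0.953.

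The abu-miR-301b group, at a higher level, also had its AA libraries on top. Its leading profile had 137.5, 125 and 165 normalised counts in AA, 105, 91.5 and 109.6 in IGF1, and 115, 107 and 108 in CTR. All AA libraries exceeded all others, and the highest was AA replicate 3, as for ssa-miR-301c-3p. The log2 fold change was 0.37 ± 0.18 (SE) for AA against CTR (95% interval -0.03 to 0.76, edgeR adjusted p = 0.512). How many reads this group shares with ssa-miR-301c-3p was not measured.

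For ola-miR-301a-5p, a 5p arm, the AA libraries were lowest. Its normalised counts were 58.8, 43.9 and 57.4 in AA, 61.7, 71.4 and 74.3 in IGF1, and 85.5, 65.4 and 76.3 in CTR. Each AA library was below each IGF1 and CTR library. The log2 fold change of AA against CTR was -0.50 ± 0.21 (SE), with an edgeR unadjusted p of 0.0404 and an adjusted p of 0.447.

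Other miR-301 members showed no such separation. ccr-miR-301a, which leads a group of 3 profiles named miR-301a or miR-301d-3p, had 365, 380.1 and 515 normalised counts in AA, 352, 295 and 443 in IGF1, and 413, 399 and 433 in CTR. Its log2 fold changes were 0.01 (95% interval -0.39 to 0.42) for AA and -0.20 (-0.61 to 0.20) for IGF1 against CTR. The 5p arm ssa-miR-301b-5p had 319, 299 and 306 in AA, 369, 371 and 260.5 in IGF1, and 281, 324 and 347 in CTR, and its groups overlapped. dre-miR-301b-5p ranged from 51.9 to 95 and dre-miR-301a from 13.1 to 24.5 over all libraries, and in both the CTR libraries alone spanned all or nearly all of that range.

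dre-miR-130a and ssa-miR-130b-3p separated the groups by a small margin. dre-miR-130a had 2550.0, 2922 and 2849 normalised counts in AA, 2905, 2819 and 2897 in IGF1, and 2955, 2987 and 3040.1 in CTR. All 6 treated libraries were below all 3 CTR libraries, by log2 fold changes of -0.11 (95% interval -0.33 to 0.10) for AA and -0.07 (-0.28 to 0.15) for IGF1. For ssa-miR-130b-3p, AA had 1519, 1659 and 1561, IGF1 had 1755, 1682 and 1642, and CTR had 1744, 1764 and 1722. Only AA lay wholly below CTR there, with a log2 fold change of -0.15 (-0.37 to 0.08). The AA direction of both was turned round without composition factors, to 0.076 and 0.049, a scaling that moved the median of all profiles for AA and CTR to 0.16.

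In IGF1 and CTR, 26 of the 29 profiles had a fold change below 0, where 446 of all 953 profiles did. Of the 21 groups of near-identical profiles, 18 were below 0, and such groups were not formed for this count over all profiles. The median was -0.15 over these groups and -0.14 over the 29 profiles, against 0.02 over all 953 profiles. By number, the median over the groups was -0.16 for miR-130 (7 of 9 below 0), -0.14 for miR-301 (6 of 7) and -0.15 for miR-454 (5 of 5). By arm, all 15 groups named 3p or without an arm were below 0, from -0.76 to -0.05, while the 6 groups named 5p ran from -0.20 to 0.47 with 3 on each side of 0. The arms were not split over all profiles. The direction of 3 miR-454 groups turned without CTR replicate 1, where ccr-miR-454b, gmo-miR-454-3p and oni-miR-454b had log2 fold changes of 0.096, 0.046 and 0.013. The IGF1 and CTR libraries did not overlap for 4 of the 29 profiles, where 10.8% of all profiles did not: dre-miR-130a, abu-miR-130 and dre-miR-130c-3p were lower in IGF1, and dre-miR-130c-5p was higher. For abu-miR-130 (198, 145 and 154 normalised counts in AA, 166, 175 and 189.8 in IGF1, and 204, 189.8 and 194 in CTR) the margin was under 1 count.

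dre-miR-130c-5p was the member farthest above CTR in IGF1. Its normalised counts were 196, 192 and 183 in AA, 294, 238 and 235 in IGF1, and 194, 170.4 and 187 in CTR. All 3 IGF1 libraries were above the other 6, and IGF1 replicate 1 was highest. The log2 fold change of IGF1 against CTR was 0.47 ± 0.16 (SE, 95% interval 0.11 to 0.83), with an edgeR unadjusted p of 0.0150 and adjusted p of 0.552. Without IGF1 replicate 1 it was 0.36, and the adjusted p ran from 0.0551 to 0.989 over the other settings tried. The size stood below the minimum of 0.55.

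The opposite arm of the same hairpin, dre-miR-130c-3p, had 304, 218 and 279.5 normalised counts in AA, 246, 224 and 260.5 in IGF1, and 310.2, 266 and 291 in CTR. IGF1 lay below CTR without overlap, with a log2 fold change of -0.26 (95% interval -0.64 to 0.13, edgeR adjusted p = 0.953). The profile of dre-miR-130c-3p also holds entries named miR-130 and miR-130a-3p, so the counts do not show which hairpin its reads came from, whereas dre-miR-130c-5p is the only entry of its profile.

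The arms were therefore set against each other within each library, where no size factor enters. The log2 ratio of the 3p to the 5p count of dre-miR-130c was 0.63, 0.19 and 0.61 in AA, -0.26, -0.09 and 0.15 in IGF1, and 0.68, 0.64 and 0.64 in CTR. The 3 groups did not overlap, and the IGF1 libraries were lowest. The margin between AA and CTR was very narrow, with AA replicate 1 at 0.633 and CTR replicate 3 at 0.636. The IGF1 mean of -0.06 ± 0.20 was below the CTR mean of 0.65 ± 0.02 (SD, n = 3 each) by a difference of -0.72. The AA mean was 0.48 ± 0.25. Paired by replicate number, the ratio was lower in IGF1 than in CTR in 3 of 3 pairs, by -0.93, -0.73 and -0.48. The exact two-sided permutation test gave p = 0.1 for each pair of groups, the smallest that the 20 splits of 6 libraries allow, and an adjusted p of 0.24 over the 12 tests of arm ratios.

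Under the oni and pny names of miR-130b, the 5p arm was far more abundant than the 3p arm. oni-miR-130b-5p had 8085, 8500.2 and 6792 normalised counts in AA, 10435, 8958 and 8582 in IGF1, and 8873, 8494 and 7630.5 in CTR. dre-miR-130b, whose profile holds oni-miR-130b-3p, had 530.0, 359.8 and 447 in AA, 405, 331 and 374 in IGF1, and 571, 381 and 415 in CTR. The 5p count exceeded the 3p count 17.6 times in AA, 25.2 times in IGF1 and 18.5 times in CTR, as the mean log ratio gives it. How well pacu reads match either entry was not measured. Other species' names ran the other way. ssa-miR-130b-3p averaged 1672 normalised counts while ssa-miR-130b-5p had at most 1 raw count in any library, and gmo-miR-130b-3p averaged 6.89 raw counts while gmo-miR-130b-5p had 0. The abundant 5p profile also holds ssa-miR-130a-5p. pny-miR-130b-3p, a second version of the 3p arm, had 576, 387 and 502 in AA, 445, 369 and 408 in IGF1, and 633, 414 and 452 in CTR, and followed dre-miR-130b from library to library.

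The log2 ratio of 3p to 5p for oni-miR-130b was -3.93, -4.56 and -3.92 in AA, -4.69, -4.76 and -4.52 in IGF1, and -3.96, -4.48 and -4.20 in CTR. IGF1 lay below CTR in every library, by a mean difference of -0.44 (exact permutation p = 0.1, adjusted p = 0.24), and its range overlapped that of AA (difference 0.52 for AA minus IGF1, exact permutation p = 0.2, adjusted p = 0.343). Paired by replicate number, AA was above IGF1 in 3 of 3 pairs, by 0.75, 0.20 and 0.60. The paired exact permutation test, added after seeing the data, gave p = 0.25 for this difference and for each pair of groups of dre-miR-130c, the smallest that 8 arrangements allow, with an adjusted p of 0.375 over the 12 tests. The pny-miR-130b pair shares its 5p counts with the oni pair, and its 3p arm gave a difference of -0.43 between IGF1 and CTR. These are not independent observations.

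**Figure D3:**
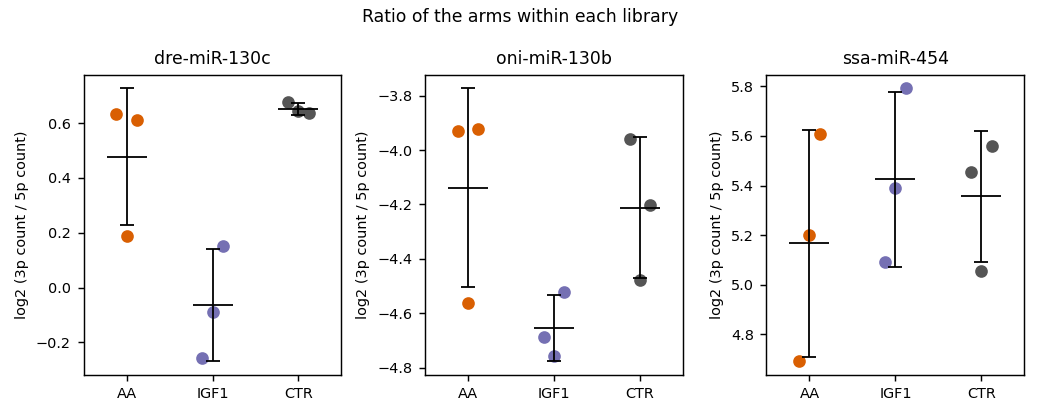
Log2 ratio of the 3p to the 5p count within each library (vertical axis) for dre-miR-130c, oni-miR-130b and ssa-miR-454, with 1 point per library and lines at the mean ± SD of 3 libraries in AA, IGF1 and CTR. For dre-miR-130c the IGF1 libraries lie at -0.26 to 0.15 and the CTR libraries at 0.64 to 0.68, while for ssa-miR-454 all 3 groups overlap.

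For miR-454 the order of the arms was the reverse. ssa-miR-454-3p, in the profile of oni-miR-454b, held 39.8 times the count of ssa-miR-454-5p. The log2 ratio was 4.69, 5.20 and 5.61 in AA, 5.09, 5.39 and 5.79 in IGF1, and 5.45, 5.06 and 5.56 in CTR. The groups overlapped in all 3 comparisons, with exact permutation p-values of 0.5 to 0.9. Paired by replicate number, AA was below IGF1 in 3 of 3 pairs, by -0.40, -0.19 and -0.18. The paired exact permutation test gave p = 0.25 and an adjusted p of 0.375 for this difference. Against CTR, the pairs of each treatment went both ways.

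The miR-454 levels themselves differed little between groups. oni-miR-454b had 3759, 4642 and 4916 normalised counts in AA, 4657, 4348 and 6077 in IGF1, and 6359, 4839 and 5091 in CTR. CTR replicate 1 was the highest of the 9 libraries and the groups overlapped. The log2 fold change was -0.30 (95% interval -0.64 to 0.05) for AA and -0.12 (-0.46 to 0.22) for IGF1 against CTR. gmo-miR-454-3p had the same library on top, with 2671, 2983 and 3349 in AA, 2944, 2730.4 and 3669 in IGF1, and 3996, 2933 and 3082 in CTR. dre-miR-454b (407 to 564), ssa-miR-454-5p (101 to 146) and ccr-miR-454b (23.0 to 57.6) also overlapped between each treatment and CTR.

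Replicate 1 was the highest library in all 3 groups for dre-miR-130b, pny-miR-130b-3p and dre-miR-130c-5p, and replicate 3 was for the ccr-miR-301a group. For all other members the highest replicate number differed between the groups. The replicate numbers were taken to pair the libraries from the data, because deviations from the group means correlated between libraries of the same number over all 953 profiles. The intervals, standard errors and counts at an unadjusted p given above come from fits without that number as a block. The block made most standard errors smaller. For dre-miR-130b in IGF1 against CTR, the log2 fold change went from -0.31 ± 0.21 to -0.30 ± 0.12 (SE). For oni-miR-454b in AA against CTR, -0.30 ± 0.16 became -0.30 ± 0.13. For dre-miR-301a there, the SE rose from 0.29 to 0.30. With the block, 0 of 29 profiles passed by adjusted p alone in either comparison with CTR. Other blocked fits are given where the block changed a call.

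**Figure D4:**
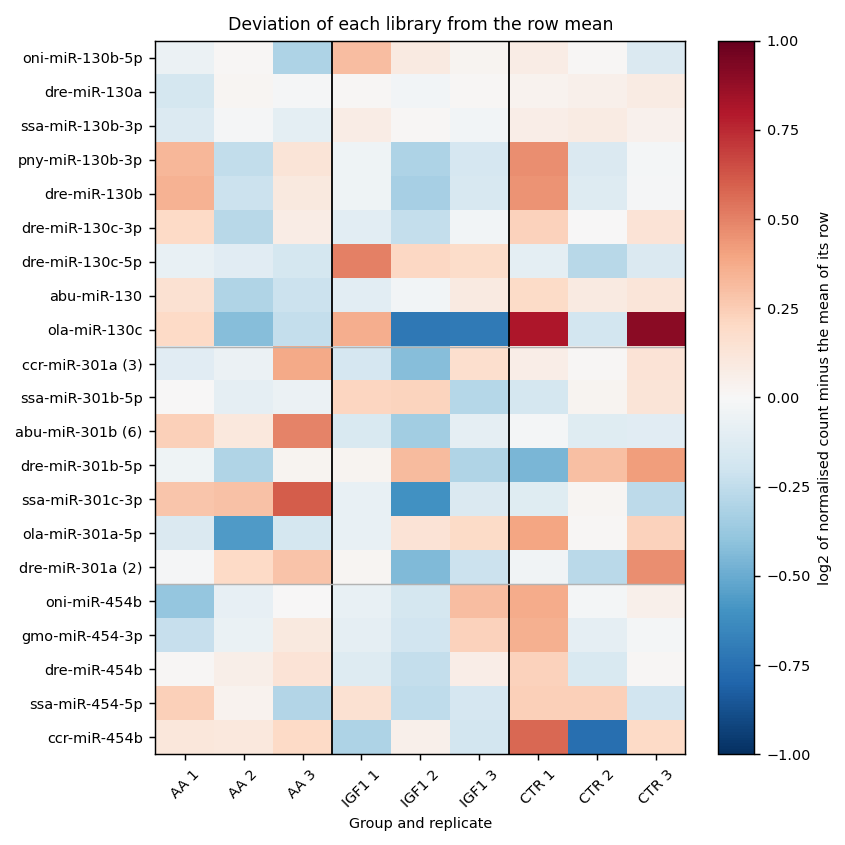
Log2 normalised count of each library (columns, by group and replicate) minus the mean of its row, for the 21 groups of near-identical profiles (rows, colour scale from -1 to 1). dre-miR-130b and pny-miR-130b-3p are darkest in AA and CTR replicate 1, and ssa-miR-301c-3p is above its mean in all 3 AA libraries.

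The direct comparison of AA and IGF1 gave the only call in the family. With the replicate block, ssa-miR-301c-3p was called at a log2 fold change of 0.65 ± 0.19 (SE) and an edgeR adjusted p of 0.0406, 1 of 29 family profiles where 4.83% of all profiles were called. Without the block its log2 fold change was 0.66 ± 0.21 (SE, 95% interval 0.20 to 1.12, 1.58-fold) and its adjusted p was 0.177. Its highest library was replicate 3 in AA, replicate 1 in IGF1 and replicate 2 in CTR. The top library of this profile therefore did not follow the replicate number. The adjusted p ran from 0.0395 to 0.623 over the 22 other fits, and DESeq2 with the block gave 0.0771. The blocked fit called 0 of 29 for AA and CTR (3.88% of all profiles) and 0 of 29 for IGF1 and CTR (1.57%).

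By the blocked adjusted p alone, with no minimum fold change, 9 of the 29 profiles passed for AA and IGF1, 7 higher and 2 lower in AA, where 12.2% of all profiles passed. They came from 4 of the 21 groups of near-identical profiles. The count depended on the fit: the block on distinct profiles passed 7 (10.3% of all profiles), all of them higher in AA, and DESeq2 with the block passed 1 (12.0%), oni-miR-130b-5p. ssa-miR-301c-3p and the abu-miR-301b group were higher in AA. The group's leading profile was higher by 0.49 ± 0.14 in the blocked edgeR fit (SE, adjusted p = 0.0415) and by 0.49 ± 0.18 without the block (adjusted p = 0.254). Over all fits but the last, the adjusted p ran from 0.0415, that same blocked fit, to 0.668. dre-miR-130c-5p had a log2 fold change of -0.42 ± 0.12 in the blocked edgeR fit (adjusted p = 0.0445) and of -0.42 ± 0.16 without the block (adjusted p = 0.287). Its range over the other fits was 0.0445, again that blocked fit, to 0.690, and DESeq2 with the block gave 0.0526. For oni-miR-130b-5p it was -0.25 ± 0.07 in the blocked edgeR fit (adjusted p = 0.0408) and -0.25 ± 0.12 without the block (adjusted p = 0.435, range 0.0276 to 0.945). The AA and IGF1 libraries did not overlap for 11 of the 29 profiles, 8 higher and 3 lower in AA, where 12.2% of all profiles did not. These came from 6 groups of near-identical profiles, which were the 4 just named, ccr-miR-454b above IGF1 and ola-miR-301a-5p below it.

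By arm, 5 of the 6 groups named 5p were lower in AA than in IGF1 (median -0.19), and 10 of the 15 groups named 3p or without an arm were higher (median 0.17). Of all 953 profiles, 568 were lower and 385 higher. The arms were not split over all profiles, so whether this is particular to the family was not tested. The median over the 29 profiles was 0.22 for AA and IGF1, against -0.06 over all 953 profiles, and over the 21 groups it was 0.10. With near-identical entries collapsed and the model refitted, the medians were -0.03 for the family and -0.01 for all. That family median left out the groups led by dre-miR-130a, dre-miR-130b, dre-miR-130c-3p and dre-miR-454b, of which the refit kept other names. Without the refit these had log2 fold changes of -0.05, 0.28, 0.15 and 0.17, so a turn of direction by collapsing cannot be read from it. Without composition factors the medians over the 29 and the 953 profiles were 0.44 and 0.17. The share of muscle miRNAs given above was also wholly higher in AA than in IGF1, and its part in these values was not tested.

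Related seeds gave a comparison from other numbers. The seeds of miR-19, of miR-148 and miR-152, and of miR-17, miR-20, miR-93 and miR-106 overlap that of the family when shifted, on 1 arm each. The lists were taken by number whatever the arm, so they may also hold the other arm, which carries a different seed. None of the 13 profiles of miR-19, the 18 of miR-148 and miR-152 or the 24 of the miR-17 list was called in any comparison. For IGF1 and CTR the median log2 fold change was -0.39 over miR-19, 0.09 over miR-148 and miR-152, and -0.14 over the miR-17 list. For AA and CTR the medians were -0.18, 0.14 and 0.11. In IGF1 and CTR, 13 of 13 miR-19 profiles were below 0, where 446 of all 953 were. Of the 13, 8 had an unadjusted edgeR p of at most 0.05, where 7.66% of all profiles did. Near-identical profiles were not joined in these lists, so their profiles may not be separate observations. The muscle list, measured the same way, had 14 of 15 profiles called in AA against CTR (2.31% of all profiles), with a median of 2.04. In IGF1 against CTR it had 1 of 15 called (0.210% of all profiles), with a median of 0.24.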

How the data were processed

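Small RNA libraries of AA, IGF1 and CTR myotubes were grouped and numbered by their labels. The authors checked reads with FastQC 0.11.8, trimmed them with Trimmomatic, aligned them with Bowtie2 to miRBase entries of 13 teleost species, and deposited the raw counts. The deposited normalised counts are a signal: raw counts over a DESeq2 size factor per library. The deposited values were checked: 1 factor (0.695 to 1.36) gave every value of a library, and the normalised table kept exactly the entries whose mean reached 10 counts, leaving out 0.00134% of counts. For reads that match several entries, the counting rule was not given in the sources used. Counts over all entries summed to 81685427 to 137767439 per library, more than the reads the study reports for any whole group. Reads were therefore counted at more than 1 entry, and sums over entries, the zebrafish totals included, can hold a read repeatedly. Counting error is small for abundant members and large near 10 counts.

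Raw counts were fitted with edgeR 4.0.16 under R 4.3.3 (glmQLFit and glmQLFTest, TMM factors, all 9 libraries together, group as the only term), and p-values were adjusted by Benjamini-Hochberg over every entry of the normalised table. The thresholds for a call, 0.05 for the adjusted p and 0.55 for the log2 fold change in either direction, follow the study's methods. Standard errors and 95% intervals came from the quasi-likelihood F statistic. The script was tested on simulated data. Arm ratios were compared by exact two-sided permutation tests (SciPy 1.17.1).

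Pairing by replicate number was checked by the correlation of deviations from group means over 953 profiles. The 9 pairs of libraries with the same number gave 0.287 to 0.566, and the 18 others -0.484 to 0.151. Over the 29 family profiles the ranges were -0.391 to 0.636 and -0.528 to 0.252.

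The members and lists were chosen with earlier results of these data known. Named profiles were, for every mature name, the zebrafish profile or else the alphabetically first of its most abundant entries, plus profiles called by any test and those with the largest fold changes. Profiles of 1 near-identical group are represented by the leading one. Alternatives were DESeq2 1.42.0, other factors and filters, distinct profiles, zebrafish entries, only the groups compared, the replicate block and each library left out. Collapsing near-identical entries, paired arm ratios, and the block with DESeq2 or on distinct profiles were chosen after seeing the data.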

Additional observations from a re-analysis of the deposited data

How the results depend on the processing

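The count of family calls was 0 under every alternative for AA vs CTR and IGF1 vs CTR. For AA vs IGF1 it was 1 with the replicate block and 1 with the block on distinct profiles, and 0 under the others, each library left out included. The block changed no other call, and its adjusted p alone passed 9 profiles, 7 on distinct profiles and 1 with DESeq2, and turned ccr-miR-301a in AA vs CTR to -0.0063. The 29 family profiles took 0.0660% in AA, 0.0625% in IGF1 and 0.0657% in CTR of the raw counts of all 953 distinct profiles. This is a different sum over a different total than the zebrafish share, also without size factors. The cause of the changes below was not tested.

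Without composition factors, which put the median of all profiles at 0.16 for AA vs CTR and 0.17 for AA vs IGF1, the following log2 fold changes turned positive. For AA vs CTR they were 0.076 for dre-miR-130a, 0.18 for dre-miR-130b, 0.10 for dre-miR-130c-3p, 0.026 for gmo-miR-454-3p, 0.10 for oni-miR-130b-5p, 0.18 for pny-miR-130b-3p, 0.049 for ssa-miR-130b-3p, 0.16 for ssa-miR-301b-5p and 0.12 for ssa-miR-454-5p. For AA vs IGF1 they were 0.17 for abu-miR-130, 0.17 for dre-miR-130a, 0.097 for dre-miR-301b-5p, 0.18 for gmo-miR-454-3p, 0.050 for oni-miR-454b, 0.13 for ssa-miR-130b-3p and 0.11 for ssa-miR-301b-5p.

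With 1 library left out, 31 of 567 log2 fold changes of the 21 leading profiles turned sign, none above 0.25 in size with all libraries. For AA vs CTR the ranges were -0.15 to 0.14 for ccr-miR-301a, -0.26 to 0.41 for ccr-miR-454b, -0.15 to 0.20 for dre-miR-130b, -0.19 to 0.028 for dre-miR-130c-3p, -0.040 to 0.30 for dre-miR-301a, -0.046 to 0.16 for dre-miR-454b, -0.24 to 0.021 for gmo-miR-454-3p, -0.14 to 0.21 for pny-miR-130b-3p, -0.095 to 0.027 for ssa-miR-301b-5p and -0.22 to 0.035 for ssa-miR-454-5p. For IGF1 vs CTR they were -0.57 to 0.096 for ccr-miR-454b, -0.32 to 0.050 for dre-miR-301b-5p, -0.24 to 0.046 for gmo-miR-454-3p, -0.28 to 0.013 for oni-miR-454b and -0.027 to 0.22 for ssa-miR-301b-5p. For AA vs IGF1 they were -0.22 to 0.019 for abu-miR-130, -0.073 to 0.030 for dre-miR-130a, -0.25 to 0.042 for dre-miR-301b-5p, -0.13 to 0.097 for gmo-miR-454-3p, -0.11 to 0.60 for ola-miR-130c and -0.022 to 0.23 for ssa-miR-454-5p.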
